A study of Homo sapiens with 16 samples.

Results

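The fibrillin microfibril and the latent TGF-β complex that it holds were followed through 10 genes in MCF10A cells: THSD4, the fibrillins FBN1 and FBN2, the latent TGF-β binding proteins LTBP1, LTBP2, LTBP3 and LTBP4, the ligands TGFB1 and TGFB2, and the receptor TGFBR2. They are 10 of the 26475 genes in the count table. THSD4 was selected on its measured log2 fold changes, as a gene higher with both inhibitors than with collagen alone, so its values in those comparisons are a description and carry no test. The other 9 were added as its partners in the pathway, with earlier results of these data known, and they were measured in the same libraries. Their p-values do not account for that choice.

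MCF10A is an immortalized, non-tumorigenic line of human breast epithelial cells, so all 16 libraries come from 1 cell line. Control cells received vehicle and no collagen, and collagen cells received vehicle and then collagen I at 0.05 mg/mL for 24 h. DDR1i cells received collagen with DDR1-IN-1, an inhibitor of the collagen receptor kinase DDR1, at 2 μM for 48 h in all. RUNXi cells received collagen with AI-10-104, which blocks the binding of RUNX proteins to CBFβ, at 5 μM for 48 h in all. Each group had 4 libraries. No label says that replicates were separate cultures, so p-values measure only the spread between these samples.

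TGF-β is secreted in an inactive form, wrapped in its own propeptide. In the endoplasmic reticulum the propeptide is bound by an LTBP, which then ties the complex to fibrillin microfibrils and fibronectin in the matrix. Integrins, thrombospondin and proteases can release the ligand, which then signals through TGFBR2 and TGFBR1 to the SMAD proteins. THSD4, also called ADAMTSL6, is a secreted protein that binds fibrillin-1 and promotes the assembly of microfibrils.

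Total counts ranged from 12184619 to 44332378 per library, and all 10 genes passed the filter on low counts in each fit. Levels are given as CPM, counts of a gene relative to the total of its library, scaled by the TMM method over all 16 libraries. Collagen replicate 3, which the study left out, and collagen replicate 4 stood apart from the other collagen libraries, in opposite directions. Replicate 3 was the highest of its group for 8 of the 10 genes, and replicate 4 was the lowest for 8 of the 10. Values against collagen come from the 3 libraries without replicate 3 unless stated, and the values with it stand beside them. Of 10 breast epithelial markers, all were detected, and their summed level was 14557 to 19145 CPM in the DDR1i libraries and 19861 to 27728 CPM in the others. Of 10 fibroblast markers, COL3A1 was at 0 in all 16 libraries and the list summed to 35.0 to 74.6 CPM. Endothelial markers summed to at most 3.98 CPM with CDH5 at 0. The part of these markers in the results was not tested. In bulk RNA, fewer cells that express a gene and less RNA per cell cannot be told apart.

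Because an inhibitor of RUNX binding was used, the 250 bases before each annotated start were searched for the RUNX motif TGTGGT, on both strands (ACCACA on the other). The windows came from RefSeq on GRCh38.p14, a different build from that of the counts, and all 10 genes matched, with 17 windows. The motif was in 2 of the 17 windows (11.8%) and in 3855 of 35116 windows of all genes (11%). The windows with a motif belonged to THSD4 and LTBP1. The THSD4 window, at chr15:71096644-71096893 on the plus strand, is shown whole because THSD4 is the gene the set was built on; the capitals mark the motif, whose first base lies 210 bases before the start.
THSD4: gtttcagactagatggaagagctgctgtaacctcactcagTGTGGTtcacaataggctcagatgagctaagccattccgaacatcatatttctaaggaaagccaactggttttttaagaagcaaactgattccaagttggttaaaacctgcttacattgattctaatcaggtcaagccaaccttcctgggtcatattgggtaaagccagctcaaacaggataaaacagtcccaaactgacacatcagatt
LTBP1, chr2:33134492-33134517, 94 bases before the start: agtgcagcatTGTGGTtagtaatccc
LTBP1, chr2:33134530-33134555, 56 bases before the start: cgacttcaaaTGTGGTtttggagtgc
The LTBP1 stretches lie on the plus strand in 1 of its 3 windows and show the motif with 10 bases on each side. The other THSD4 windows, 2 of 3, held no motif. A match to these letters is a description of the sequence, and no binding was measured in these libraries.

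THSD4 lies at chr15:71389291-72075722 on the plus strand (GRCh37), with 18 exons in the transcript used for its length. It had 31.7, 39.8, 42.7 and 38.1 CPM in the 4 DDR1i libraries and 27.99, 36.4, 44.5 and 34.2 CPM in the 4 RUNXi libraries. The collagen libraries had 20.8, 17.3, 31.5 and 13.5 CPM, and the control libraries 32.5, 20.0, 24.4 and 27.0 CPM. All 8 inhibitor libraries lay above collagen replicates 1, 2 and 4. Collagen replicate 3, at 31.5 CPM, lay within the range of the RUNXi libraries and just below the lowest DDR1i library. The difference from collagen on the log2 scale was 1.15 ± 0.19 (SE) with DDR1i, or 2.22-fold, and 1.05 ± 0.19 with RUNXi, or 2.07-fold. With collagen replicate 3 included these differences were 0.87 and 0.77. They were 0.82 and 0.77 with the trend in transcript length taken out of each library. Leaving out any 1 library gave 1.01 to 1.29 with DDR1i and 0.91 to 1.19 with RUNXi.
Against the control the THSD4 difference was smaller, 0.55 ± 0.18 with DDR1i and 0.45 ± 0.18 with RUNXi on the log2 scale, and the groups overlapped. Collagen without replicate 3 was lower than the control by a log2 difference of -0.59 ± 0.24, and of -0.32 with replicate 3 included or with the length trend removed. DDR1i and RUNXi differed for THSD4 by 0.10 ± 0.17 (95% interval -0.24 to 0.43), given with no test since both values entered the choice of the gene. The table also lists CT62 and THSD4-AS1 inside the THSD4 locus, and whether strand was used in counting is not given in the sources used here, so reads of these genes cannot be told apart from those of THSD4.

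**Figure D1:**
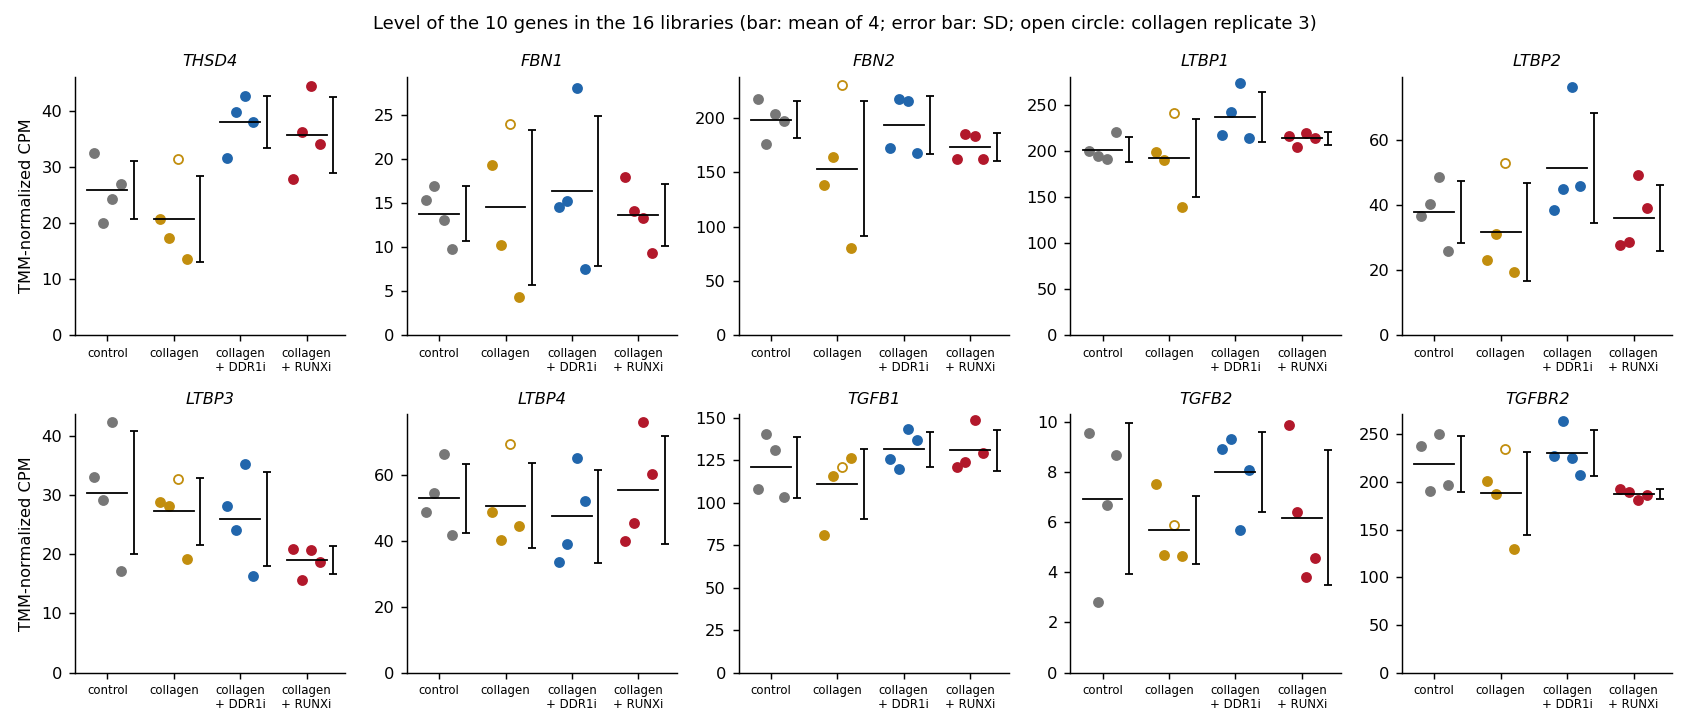
Each panel plots the TMM-normalized CPM of 1 gene in the 16 libraries by group (filled circles; open circle, collagen replicate 3), with the mean of 4 libraries as a bar and the SD as an error bar. The mean is highest with DDR1i for THSD4, FBN1, LTBP1, LTBP2, TGFB1, TGFB2 and TGFBR2. It is highest in the control for FBN2 and LTBP3, and with RUNXi for LTBP4. Collagen replicate 4 is the lowest collagen library for 8 of the 10 genes, and collagen replicate 3 the highest for 8 of 10.

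LTBP2 was the only member of the 9 that passed the test against collagen in the main fit, and only with DDR1i. It lies at chr14:74964886-75079081 on the minus strand. LTBP2 binds fibrillin-1 but, unlike the other LTBPs, does not bind latent TGF-β. Its levels were 38.3, 44.9, 76.2 and 45.7 CPM with DDR1i, and 23.0, 31.0, 53.0 and 19.3 CPM with collagen. The 4 DDR1i libraries lay above collagen replicates 1, 2 and 4, but 3 of them lay below collagen replicate 3. LTBP2 rose by 1.06 ± 0.24 on the log2 scale (2.09-fold, adjusted p = 0.0223, edgeR's quasi-likelihood test). With RUNXi, LTBP2 had 27.6, 28.5, 49.1 and 38.9 CPM, a difference of 0.55 ± 0.24 from collagen with an adjusted p of 0.186 (0.17 with collagen replicate 3 included). The difference of 0.52 ± 0.22 between the inhibitors did not pass its test either (95% interval 0.09 to 0.94, adjusted p = 0.666), so LTBP2 was not shown to differ between DDR1i and RUNXi.
The LTBP2 call did not hold in every fit. With collagen replicate 3 included the difference was 0.69 (adjusted p = 0.536), and with the length trend removed it was 0.77 (adjusted p = 0.0913). It held in 8 of the 11 fits that left out 1 library, over a range of 0.81 to 1.26, and was lost without collagen replicate 1, collagen replicate 4 or DDR1i replicate 3. Against the control, whose LTBP2 levels were 36.5, 40.2, 48.5 and 25.7 CPM, the DDR1i difference was 0.45 ± 0.22 (adjusted p = 0.992) and the groups overlapped. Replicate 3 was the highest library of every group for LTBP2. The fit behind the call left replicate 3 out for collagen but kept it for DDR1i.

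Called genes made up 2.47% of the 13548 genes tested with DDR1i against collagen, and 1.69% were called higher, against 1 of the 9 members. Groups that did not overlap, with all DDR1i libraries above the 3 collagen libraries, were seen for 8.44% of all genes. Among the 9 members they were seen for 4: FBN2, LTBP1, LTBP2 and TGFBR2. The median log2 difference of the 9 members was 0.43, beside 0.00 over all genes, and all 9 fitted differences were above 0. With collagen replicate 3 included the median was 0.29 and LTBP3 and LTBP4 lay below 0. With the length trend removed it was 0.26, beside -0.05 over all genes, with the same members below 0. With the replicate number as a block it was 0.45, again with LTBP3 and LTBP4 below 0. That fit called LTBP2, TGFBR2 and FBN2, and 537 of the 13548 genes tested. With replicate 3 counted no member was free of overlap. With RUNXi, 4.05% of all genes were called, 2.59% as higher, and none of the 9 members, at adjusted p-values from 0.146 to 0.881 (edgeR). An unadjusted p under 0.05 was seen for 3 of the 9, beside 2853 of the 13548 genes tested. LTBP1 was the only member whose RUNXi libraries all lay above the 3 collagen libraries, a pattern seen for 9.46% of all genes. With replicate 3 counted LTBP1 overlapped too. The median of the 9 members was 0.27 with RUNXi, beside 0.01 over all genes. It fell to 0.11 with replicate 3 included and 0.08 with the length trend removed, beside -0.01 over all genes in each. Both comparisons share the same collagen libraries.

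The fibrillins form the backbone of the microfibril. FBN2, the fibrillin best known from developing tissues, lies at chr5:127593601-127994878 on the minus strand and was the more abundant in these cells. FBN2 had 172, 218, 216 and 168 CPM with DDR1i, 163, 185, 183 and 162 CPM with RUNXi, and 138, 164, 230 and 80.5 CPM with collagen. Its DDR1i libraries lay above collagen replicates 1, 2 and 4 and below replicate 3. The log2 difference from collagen was 0.60 ± 0.17 with DDR1i (adjusted p = 0.0657) and 0.43 ± 0.17 with RUNXi (adjusted p = 0.146), and neither passed the test in the main fit. With collagen replicate 3 included they were 0.33 and 0.16. Collagen replicate 4 decided much of the size: without it the FBN2 difference was 0.36 with DDR1i and 0.20 with RUNXi. Without collagen replicate 3, FBN2 passed with DDR1i under DESeq2 (adjusted p = 0.0201). In edgeR it passed with the replicate block (adjusted p = 0.0162) and without the filter on low counts (adjusted p = 0.00148). With RUNXi it passed in edgeR without that filter (adjusted p = 0.0421).
FBN1, at chr15:48700510-48937918 on the minus strand, encodes the main fibrillin of adult microfibrils. It was low and uneven, at 14.6, 15.2, 28.2 and 7.57 CPM with DDR1i, 18.02, 14.1, 13.3 and 9.39 CPM with RUNXi and 19.4, 10.3, 24.1 and 4.37 CPM with collagen. These groups overlapped throughout. The FBN1 difference from collagen was 0.54 ± 0.47 with DDR1i (adjusted p = 0.623) and 0.27 ± 0.46 with RUNXi (adjusted p = 0.808), and the RUNXi value turned to -0.11 without collagen replicate 4. The FBN1 differences were 0.18 and -0.09 with collagen replicate 3 included. Per transcript length, FBN2 stood at 14.9 ± 6.51 times FBN1 with DDR1i, 14.1 ± 3.58 times with RUNXi, 13.6 ± 5.62 times with collagen and 15.97 ± 4.27 times in the control (mean ± SD, n = 4 each).

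LTBP1, at chr2:33172020-33624576 on the plus strand, binds latent TGF-β covalently and was the leading LTBP. It had 217, 243, 274 and 215 CPM with DDR1i, 217, 205, 220 and 214 CPM with RUNXi and 199, 190, 242 and 139 CPM with collagen. All 8 inhibitor libraries lay above collagen replicates 1, 2 and 4, while collagen replicate 3 exceeded 6 of the 8. The LTBP1 difference was 0.43 ± 0.13 with DDR1i (adjusted p = 0.0702) and 0.27 ± 0.13 with RUNXi (adjusted p = 0.212), and with collagen replicate 3 included it was 0.30 and 0.14. Without that replicate, LTBP1 passed with DDR1i under DESeq2 (adjusted p = 0.0258) and in edgeR without the filter on low counts (adjusted p = 0.0464).
LTBP3, at chr11:65306030-65326401 on the minus strand, also carries latent TGF-β. Its fitted difference from collagen lay below 0 with RUNXi, alone among the members in the fit without collagen replicate 3. With replicate 3 included FBN1 and TGFBR2 also lay below 0, and with the length trend removed TGFB2 did. Its RUNXi libraries had 20.9, 15.7, 20.8 and 18.7 CPM, against 28.9, 28.1, 32.7 and 19.2 CPM with collagen and 28.1, 24.1, 35.3 and 16.3 CPM with DDR1i. The groups overlapped through collagen replicate 4 and DDR1i replicate 4. The LTBP3 difference from collagen was -0.42 ± 0.22 with RUNXi (adjusted p = 0.271) and 0.03 ± 0.22 with DDR1i (adjusted p = 0.971), which was -0.07 with replicate 3 included. It stayed below 0 with RUNXi when collagen replicate 3 was included (-0.53, adjusted p = 0.307) and when the length trend was removed (-0.54, adjusted p = 0.238).
LTBP4, at chr19:41098789-41135723 on the plus strand, binds latent TGF-β weakly and takes part in elastic fibre assembly. It had 33.7, 39.0, 65.1 and 52.0 CPM with DDR1i, 39.9, 45.5, 76.3 and 60.2 CPM with RUNXi and 48.7, 40.3, 69.4 and 44.6 CPM with collagen. Replicate 3 was the highest in every group for LTBP4, as it was for LTBP2. The LTBP4 difference was 0.09 ± 0.21 with DDR1i (adjusted p = 0.897) and 0.31 ± 0.22 with RUNXi (adjusted p = 0.445), and with collagen replicate 3 included it was -0.11 and 0.11.

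**Figure D2:**
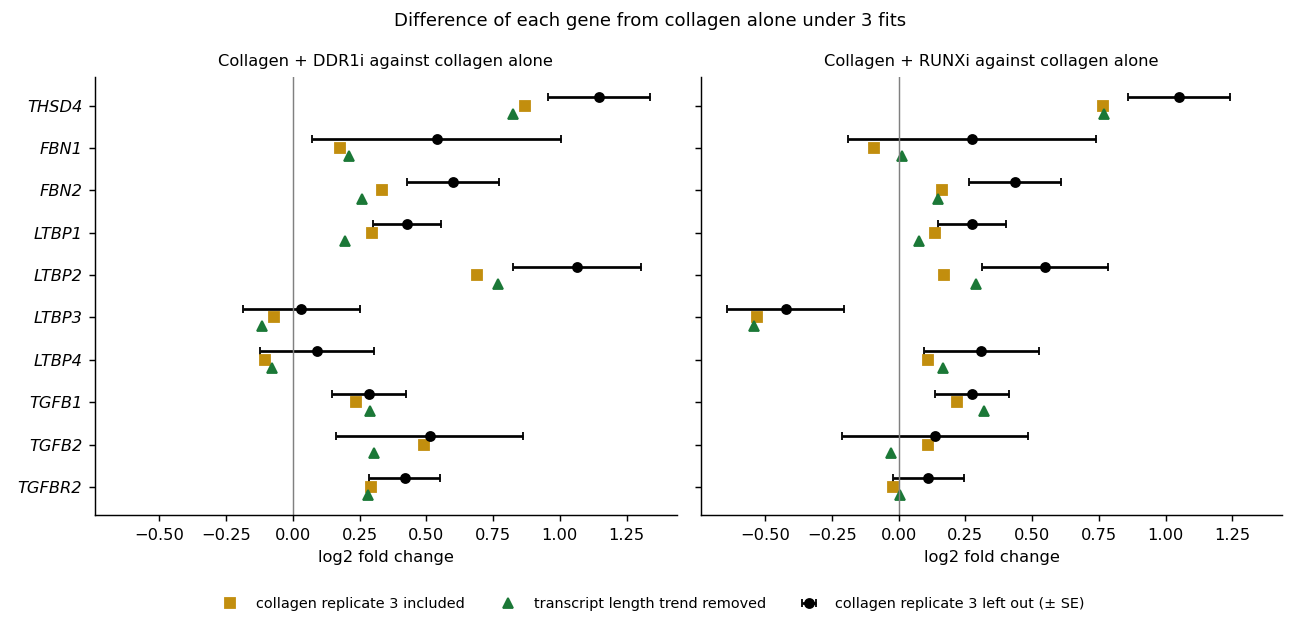
The log2 fold change of each gene from collagen alone is plotted for DDR1i (left) and RUNXi (right), from the fit without collagen replicate 3 (circles, ± SE), with replicate 3 included (squares) and with the transcript length trend removed (triangles). THSD4 stays at 0.77 or more under all 3 fits in both panels, LTBP2 with DDR1i runs from 0.69 to 1.06, and LTBP3 with RUNXi lies below 0 throughout.

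TGFB1 was the main ligand. It lies at chr19:41807492-41859827 on the minus strand and overlaps HNRNPUL1, CCDC97 and TMEM91, which the table also counts. TGFB1 had 125.5, 120, 143 and 137 CPM with DDR1i, 121, 124, 149 and 129 CPM with RUNXi and 80.9, 115, 121 and 127 CPM with collagen. The groups overlapped, with collagen replicate 1 as the lowest library. The TGFB1 difference was 0.29 ± 0.14 with DDR1i (adjusted p = 0.277) and 0.27 ± 0.14 with RUNXi (adjusted p = 0.258). The TGFB1 values were 0.24 and 0.22 with collagen replicate 3 included, and 0.10 and 0.08 without collagen replicate 1. TGFB1 was the member with the shortest transcript, at 2.78 kb.
TGFB2, at chr1:218518678-218617961 on the plus strand, was counted at 2.80 to 9.85 CPM over the 16 libraries. The TGFB2 difference was 0.51 ± 0.35 with DDR1i (adjusted p = 0.489) and 0.14 ± 0.35 with RUNXi (adjusted p = 0.881), and all groups overlapped. The TGFB2 values were 0.49 and 0.11 with collagen replicate 3 included. TGFB3, the other ligand of the family, ran from 0 to 5.43 CPM and was at 0 counts in collagen replicate 1 and RUNXi replicate 3. Per transcript length TGFB1 made up 95.3% ± 0.79 of the 3 ligands in the control, 96.4% ± 0.50 with collagen, 96.3% ± 0.96 with DDR1i and 96.9% ± 1.62 with RUNXi (SD, n = 4 each).

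TGFBR2 is the receptor that binds the ligand first, and lies at chr3:30648093-30735634 on the plus strand. It had 227, 264, 225 and 207 CPM with DDR1i, 193, 189, 181 and 186 CPM with RUNXi, 201, 187, 234 and 130 CPM with collagen and 237, 191, 251 and 196 CPM in the control. The DDR1i libraries all lay above the RUNXi libraries, the only member of the 9 for which these groups did not overlap; all DDR1i libraries above all RUNXi libraries was seen for 2.27% of genes. The difference between the inhibitors was 0.31 ± 0.12 (95% interval 0.07 to 0.55, adjusted p = 0.616) and did not pass the test. From collagen, TGFBR2 differed by 0.42 ± 0.13 with DDR1i (adjusted p = 0.0881) and 0.11 ± 0.13 with RUNXi (adjusted p = 0.696), and by 0.29 and -0.02 with collagen replicate 3 included. Without that replicate, TGFBR2 passed with DDR1i under DESeq2 (adjusted p = 0.0407) and in edgeR with the replicate block (adjusted p = 0.0330).
TGFBR1, the signalling partner of TGFBR2, had 20.6 to 34.2 CPM over the 16 libraries, and its difference from collagen was 0.06 ± 0.17 with DDR1i (adjusted p = 0.918) and 0.34 ± 0.17 with RUNXi (adjusted p = 0.260). TGFBR3, a co-receptor that presents ligand, had 8.74 to 21.2 CPM and differed by 0.13 ± 0.24 (adjusted p = 0.857) and 0.46 ± 0.24 (adjusted p = 0.285).

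Between the inhibitors 0.568% of all genes were called and none of the 9 members other than THSD4, with adjusted p-values from 0.616 to 0.999. An unadjusted p under 0.05 was seen for 3 of the 9, beside 839 of the 13548 genes tested. The 95% intervals were wide for the fibrillin FBN1 (-0.57 to 1.10) and the ligand TGFB2 (-0.25 to 1.01) and narrower for LTBP1 (-0.08 to 0.38) and TGFB1 (-0.24 to 0.26). LTBP3 differed by 0.45 ± 0.20 between DDR1i and RUNXi (95% interval 0.05 to 0.86, adjusted p = 0.738).

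Collagen alone was compared with the control to see whether these genes moved with the matrix itself. No gene of 13092 was called (0%) by edgeR, with 1754 at an unadjusted p under 0.05 and 415 called by DESeq2. None of the 9 members was called, 2 of them were at an unadjusted p under 0.05, and all 9 fitted differences lay below 0, with a median of -0.28 beside 0.01 over all genes. Including collagen replicate 3 gave a median of -0.15 and put FBN1 above 0, at 0.08. FBN2 had 217, 176, 204 and 197 CPM in the control, above collagen replicates 1, 2 and 4 and below replicate 3. Collagen replicates 1, 2 and 4 all below all 4 control libraries was seen for 7.17% of genes. The FBN2 difference was -0.63 ± 0.19 (adjusted p = 0.169, and 0.0324 with DESeq2), and that of LTBP2 was -0.61 ± 0.24 (adjusted p = 0.270). FBN2 differed by -0.37 (adjusted p = 0.815) and LTBP2 by -0.24 (adjusted p = 0.893) when collagen replicate 3 was included.
Against the control, 0.212% of genes were called with DDR1i and 0.401% with RUNXi, and none of the 9 members in either. At an unadjusted p under 0.05 there was 1 member with DDR1i and 2 with RUNXi, beside 678 and 900 of the 13213 genes tested. The median log2 difference of the 9 members was 0.13 with DDR1i and -0.06 with RUNXi, beside 0.01 and 0.00 over all genes. With the length trend removed the members' medians were -0.01 and -0.13, beside -0.10 and -0.07 over all genes. LTBP3 with RUNXi was the farthest of the 9 from the control, at -0.67 ± 0.24 (adjusted p = 0.496).

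Levels between genes were compared per kilobase of the canonical transcript (RPKM), as the mean ± SD over the 16 libraries. TGFBR2 stood at 45.5 ± 7.20 and TGFB1 at 44.4 ± 5.96 RPKM, and their order was not fixed, with TGFBR2 above TGFB1 in 7 of 16 libraries. LTBP1 followed at 32.5 ± 4.47 RPKM, FBN2 at 16.4 ± 3.36 and LTBP4 at 10.4 ± 2.53, each above the next in at least 15 of the 16 libraries. LTBP3 (5.31 ± 1.61 RPKM) and LTBP2 (4.63 ± 1.67 RPKM) changed places between libraries, LTBP3 being above in 10 of 16. TGFBR1 stood at 4.18 ± 0.67 RPKM, below LTBP2 in 10 of 16 libraries, THSD4 at 3.22 ± 0.98 and TGFBR3 at 2.33 ± 0.57 RPKM. FBN1 (1.26 ± 0.52 RPKM) and TGFB2 (1.14 ± 0.38 RPKM) could not be ordered, FBN1 being above in 8 of 16, and TGFB3 was lowest at 0.561 ± 0.36 RPKM.
Of the 4 LTBPs per transcript length, LTBP1 made up 59.5% ± 7.45 in the control, 60.2% ± 2.45 with collagen, 63.8% ± 3.76 with DDR1i and 63.3% ± 5.03 with RUNXi (SD, n = 4 each). LTBP2 made up 7.34% ± 1.88 with collagen, 10.4% ± 1.59 with DDR1i and 8.04% ± 1.42 with RUNXi. LTBP3 made up 11.5% ± 0.95 with collagen and 7.55% ± 0.87 with RUNXi, and the lowest collagen share (10.5%) lay above the highest RUNXi share (8.82%). LTBP3 made up 9.30% ± 2.15 with DDR1i (lowest 6.47%) and 11.8% ± 3.41 in the control (lowest 7.24%), and both overlapped the RUNXi shares. These shares were not tested.

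These are long transcripts, and the libraries differed in how they represented long transcripts. Of the 10 members, 9 were longer than the median of 3264 bases over the genes kept and 6 were longer than the upper quartile of 5161 bases. For each library, the median log2 deviation of genes above that quartile was set against that of genes below the lower quartile of 1972 bases. The difference was -0.18, -0.24, 0.16 and -0.74 in collagen replicates 1 to 4, and ran from -0.22 to 0.28 in the other 12 libraries. The mean log2 deviation of the 10 members was -0.12, -0.23, 0.31 and -0.69 in the same collagen libraries. In the other 12 libraries it ran from -0.14 to 0.45, and the 2 measures did not always go together. DDR1i replicate 1, at -0.22 for long transcripts, had a mean of 0.07, and control replicate 4, at 0.28, had -0.14. DDR1i replicate 2, at 0.23, had 0.20, and control replicate 1, at 0.15, had 0.16. Collagen replicates 1, 2 and 4, the libraries the inhibitors were set against, were thus low both in long transcripts and in the mean of these genes. That mean includes THSD4, which was chosen as higher with both inhibitors than with collagen, so its share in the low mean follows from the choice. With the length trend removed, none of the 9 members was called in any of the 6 comparisons. What part the length of transcripts had in the result for each gene was not tested further.

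**Figure D3:**
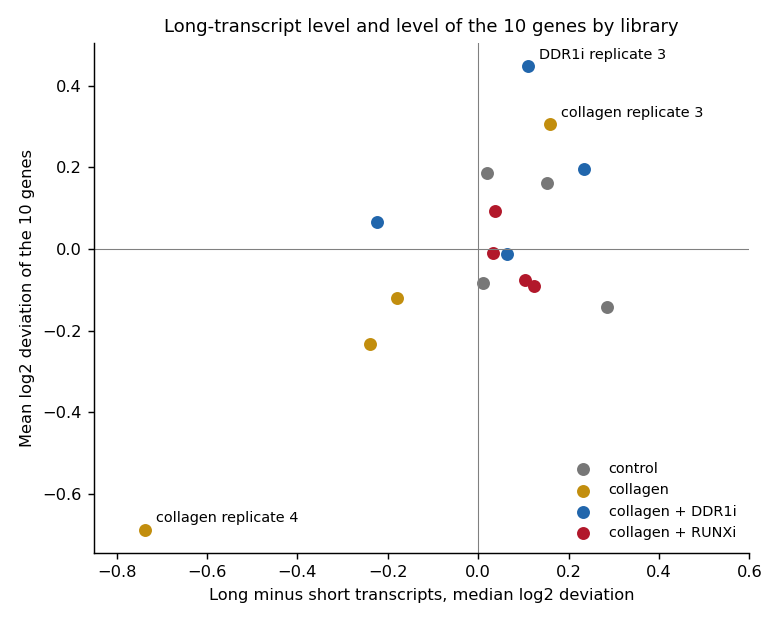
Each point is 1 library, with the log2 deviation of long minus short transcripts on the horizontal axis and the mean log2 deviation of the 10 genes on the vertical axis, both from the mean of the 16 libraries. The 10 genes include THSD4, which was chosen on its difference between the inhibitors and collagen. Collagen replicate 4 lies far from the rest at -0.74 and -0.69, and collagen replicate 3 lies apart from the other collagen libraries at 0.16 and 0.31.

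The genes around the members were read from lists of the pathway. The share of all genes called was 2.47% with DDR1i against collagen, 4.05% with RUNXi against collagen and 0.568% between the inhibitors. Against the control it was 0.212% with DDR1i and 0.401% with RUNXi. Whether the lists hold more calls than these shares was not tested. Of 30 other genes of the microfibril and elastic fibre, 19 were tested. VCAN, FN1 and HSPG2 were higher with DDR1i than with collagen, and FN1 and HSPG2 with RUNXi. VCAN, or versican, is a proteoglycan that binds fibrillin, FN1 encodes fibronectin, and HSPG2 encodes the basement membrane proteoglycan perlecan. VCAN had 93.2, 130, 129 and 128 CPM with DDR1i, 76.3, 83.1, 81.4 and 83.0 CPM with RUNXi and 75.4, 71.1, 129 and 53.3 CPM with collagen. All DDR1i libraries of VCAN lay above all RUNXi libraries. It rose by 0.85 ± 0.15 with DDR1i (adjusted p = 0.00401) and was higher with DDR1i than with RUNXi by 0.57 ± 0.13 (adjusted p = 0.0392, kept in 4 of the 11 fits without 1 library). FN1 rose by 1.03 ± 0.24 with DDR1i (adjusted p = 0.0389) and 1.20 ± 0.24 with RUNXi (adjusted p = 0.0198). HSPG2 rose by 1.18 ± 0.28 (adjusted p = 0.0428) and 1.14 ± 0.28 (adjusted p = 0.0388). The DDR1i calls of FN1 and HSPG2 were each kept in 4 of the 11 fits without 1 library. None of these calls against collagen held with collagen replicate 3 included, at adjusted p-values from 0.359 to 0.618. The median difference over the 19 genes was -0.01 with DDR1i and 0.18 with RUNXi. FBN3, in the same list, had no counts in any library.

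Of 18 genes for the storage and activation of latent TGF-β, 15 were tested. RUNXi was higher than collagen for ITGB8, THBS1, ITGB5 and ITGAV, and DDR1i for PLAU and THBS1, with none lower in either. The medians over the 15 genes were 0.40 and 0.46, beside 0.01 and 0.00 over all genes. ITGB8 encodes the β8 integrin chain, which pairs with the αv chain encoded by ITGAV and releases TGF-β from the latent complex. ITGB8 had 53.9, 43.4, 45.5 and 50.4 CPM with RUNXi, 18.8, 30.0, 27.6 and 36.6 CPM with DDR1i and 22.1, 20.4, 23.1 and 20.6 CPM with collagen. The RUNXi libraries lay above all 4 collagen and all 4 DDR1i libraries. ITGB8 rose by 1.19 ± 0.19 with RUNXi (adjusted p = 0.000939), by 1.15 with collagen replicate 3 included (adjusted p = 0.000936), and by 0.91 with the length trend removed (adjusted p = 0.0106), and it was called in all 11 fits that left out 1 library. ITGB8 was lower with DDR1i than with RUNXi by a log2 difference of -0.77 ± 0.17 (adjusted p = 0.0288), a call kept in 4 of 11 such fits. The control libraries of ITGB8 ranged from 15.9 to 39.5 CPM, and ITGB8 was not called against the control with RUNXi.
THBS1 encodes thrombospondin-1, which can activate latent TGF-β. THBS1 had 671, 640, 718 and 1004 CPM with RUNXi, 420, 435, 564 and 779 CPM with DDR1i and 272, 279, 497 and 328 CPM with collagen. It rose by 1.37 ± 0.20 with RUNXi (adjusted p = 0.00289) and by 0.91 ± 0.20 with DDR1i (adjusted p = 0.0287). With collagen replicate 3 included the RUNXi call held (1.12, adjusted p = 0.0351) and the DDR1i call did not (0.67, adjusted p = 0.457).
PLAU encodes urokinase, which generates plasmin, a protease able to release latent TGF-β. PLAU had 115, 113, 165 and 145 CPM with DDR1i, 59.0, 72.5, 66.5 and 92.1 CPM with RUNXi, 67.3, 53.3, 80.6 and 94.6 CPM with collagen and 42.6, 38.8, 40.5 and 64.9 CPM in the control. The DDR1i libraries lay above those of every other group. PLAU was higher with DDR1i than with the control by 1.53 ± 0.17 (adjusted p = 0.000124), than with RUNXi by 0.89 ± 0.17 (adjusted p = 0.00819), and than with collagen by 0.90 ± 0.19 (adjusted p = 0.0129, and 0.0620 with collagen replicate 3 included). HTRA1, a secreted serine protease, was higher with RUNXi than in the control by 0.71 ± 0.11 (adjusted p = 0.00192). Its mean was 180 CPM in the control, 219 with collagen and 293 with RUNXi (n = 4 each), and it was not called with RUNXi against collagen. ITGB5 rose with RUNXi by 0.48 ± 0.11 (adjusted p = 0.0205) and ITGAV by 0.66 ± 0.17 (adjusted p = 0.0318), and both calls were lost with collagen replicate 3 included.

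Of 17 other genes for ligands, receptors and SMADs, 16 were tested and SMAD3 alone was called. SMAD3, which carries the signal to the nucleus, had 40.7, 46.8, 62.6 and 54.9 CPM with DDR1i and 31.8, 31.5, 48.7 and 29.9 CPM with collagen. It rose by 0.72 ± 0.16 with DDR1i (adjusted p = 0.0196). This call was lost with collagen replicate 3 included (0.52, adjusted p = 0.454) and with the length trend removed (0.48, adjusted p = 0.134).

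Of 27 genes known to respond to TGF-β, 25 were tested. With DDR1i, INHBA, COL4A1 and KLF10 were higher than with collagen. With RUNXi, INHBA and COL4A1 were higher and TAGLN was lower. TAGLN encodes the actin-binding protein transgelin. It had 17.8, 18.7, 25.8 and 27.1 CPM with RUNXi, 44.7, 33.7, 65.4 and 43.8 CPM with DDR1i and 38.1, 54.6, 61.2 and 63.3 CPM with collagen. The RUNXi libraries lay below all DDR1i and all collagen libraries. TAGLN fell by 1.22 on the log2 scale with RUNXi (SE 0.21, adjusted p = 0.00226), a call that held with collagen replicate 3 included (adjusted p = 0.00127), with the length trend removed (adjusted p = 0.00345) and in all 11 fits without 1 library. TAGLN was higher with DDR1i than with RUNXi by 1.07 ± 0.20 (adjusted p = 0.00428). BHLHE40, a transcription factor, was also higher with DDR1i than with RUNXi, by 0.84 ± 0.16 (adjusted p = 0.00510).
INHBA encodes the activin A subunit. INHBA had 25.8, 15.1, 23.8 and 36.7 CPM with RUNXi, 6.28, 7.80, 18.6 and 29.1 CPM with DDR1i and 4.04, 1.77, 5.76 and 2.97 CPM with collagen, and was at 0 in control replicate 3. All 8 inhibitor libraries lay above all 4 collagen libraries. INHBA rose by 3.13 ± 0.57 with RUNXi (adjusted p = 0.0183) and by 2.40 ± 0.56 with DDR1i (adjusted p = 0.0469), and with collagen replicate 3 included these were 2.79 (adjusted p = 0.0246) and 2.07 (adjusted p = 0.272). COL4A1, a basement membrane collagen chain, rose by 1.03 ± 0.19 with DDR1i (adjusted p = 0.00621) and 0.76 ± 0.18 with RUNXi (adjusted p = 0.0250). KLF10, a transcription factor induced early by TGF-β, rose by 0.68 ± 0.17 with DDR1i (adjusted p = 0.0343). Against the control, KLF10 was higher with DDR1i by 0.73 ± 0.13 (adjusted p = 0.0143) and with RUNXi by 0.60 ± 0.13 (adjusted p = 0.0483, kept in 1 of the 12 fits without 1 library). VIM, which encodes vimentin, was higher with DDR1i than in the control by 0.60 ± 0.09 (adjusted p = 0.00228). These groups differ in collagen as well as in the inhibitor. The VIM mean was 728 CPM in the control, 896 with collagen and 1100 with DDR1i (n = 4 each), and VIM was not called with DDR1i against collagen. These COL4A1 and KLF10 calls against collagen were lost with collagen replicate 3 included, and those of KLF10 and VIM against the control with the length trend removed, at adjusted p-values from 0.0732 to 0.141.
Over the 4 lists, 18 calls against collagen were made, and 4 of them were kept with collagen replicate 3 included: ITGB8, THBS1, TAGLN and INHBA, all with RUNXi. Calls over all genes went from 334 to 9 with DDR1i and from 549 to 60 with RUNXi when replicate 3 was included. With the length trend removed 7 of the 18 were kept: VCAN, PLAU and COL4A1 with DDR1i, and ITGB8, THBS1, TAGLN and INHBA with RUNXi. Calls over all genes then numbered 162 with DDR1i and 202 with RUNXi.

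**Figure D4:**
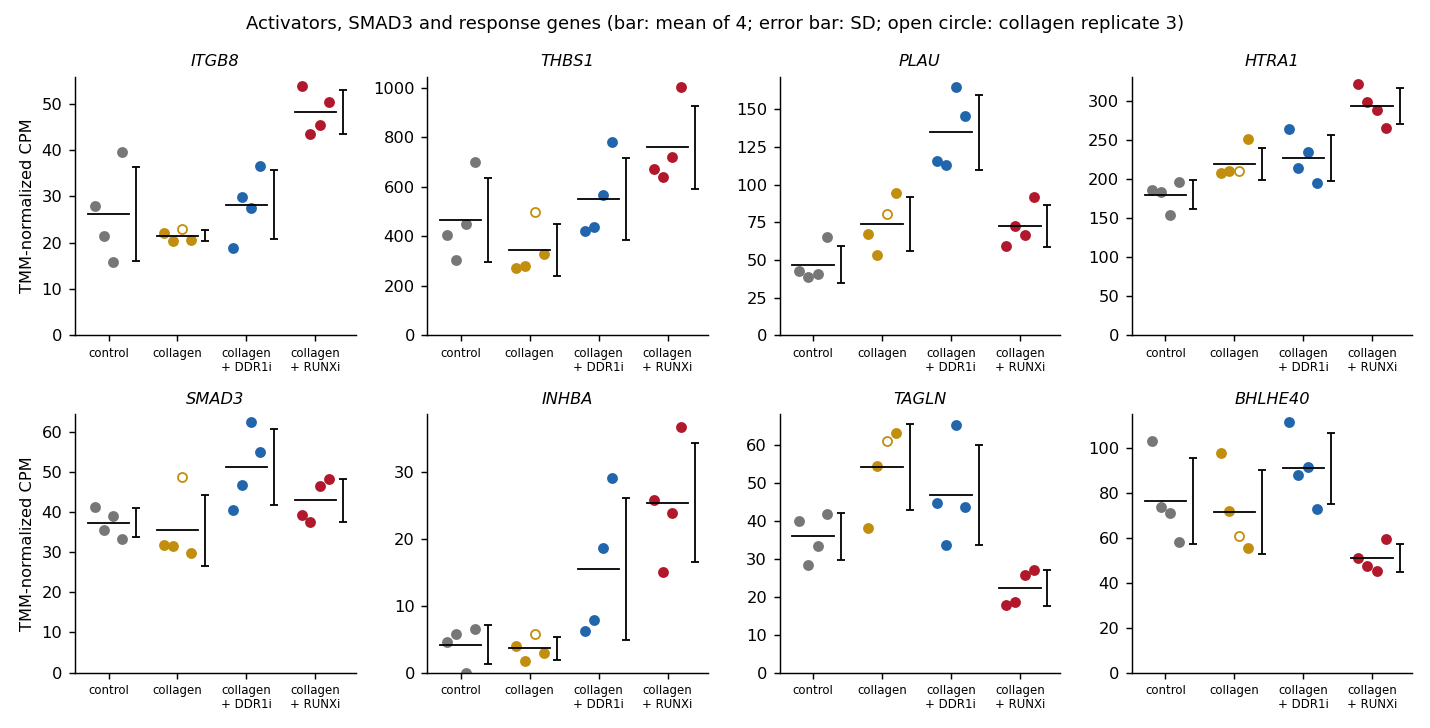
Each panel plots the TMM-normalized CPM of 1 pathway gene in the 16 libraries by group (filled circles; open circle, collagen replicate 3), with the mean of 4 as a bar and the SD as an error bar. ITGB8 is highest and TAGLN lowest in the RUNXi libraries, PLAU is highest in the DDR1i libraries, and INHBA is above collagen in all 8 inhibitor libraries.

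The genes whose level followed that of THSD4 most closely over the 16 libraries were CHD2 (Pearson's r 0.905), AHNAK (0.902), IDS (0.893), LAMB1 (0.891) and ATP2B4 (0.888), on log2 CPM. All have transcripts longer than the upper quartile, from 5650 bases for LAMB1 to 18761 for AHNAK. LTBP1 was the nearest member, with r 0.807 and place 90 of 13517, followed by FBN2 (0.684) and LTBP2 (0.667), while LTBP3 stood at -0.12. Over all genes 98 had an r above 0.8 and the median was 0.0475. The points share groups, libraries and the length trend described above, so these correlations are a description.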

How the data were processed

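Transcripts were counted in 16 RNA-seq libraries of MCF10A cells, grouped from the deposited labels; doses and times came from the labels and the study's methods. The authors aligned reads with STAR to hg19 (GRCh37) and deposited raw counts per gene and library; the counting tool, annotation and use of strand are not given in the sources used here, so that counts of overlapping genes are uncertain. Of 26473 distinct names, 22004 were matched to GENCODE on GRCh37 for position and length (20676 by current symbols, 1328 by synonyms from RefSeq).

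Tests used edgeR 4.0.16 under R 4.3.3, with TMM scaling, its filterByExpr filter, a robust quasi-likelihood fit and Benjamini-Hochberg adjustment over all genes, with a threshold of 0.05. The inhibitors and collagen shared a fit of 11 libraries without collagen replicate 3, which the study removed, collagen and control a fit of 7, and inhibitors and control a fit of 12 libraries. The SE was the fold change divided by the square root of F, and 95% intervals are normal ones from it. Log2 CPM used a prior count of 2. Alternatives were DESeq2 1.42.0, other scaling and filtering, all 4 groups in a fit, a replicate block, collagen replicate 3 included, a spline in transcript length (4 degrees of freedom) removed from each library, and each library left out. The biological coefficient of variation was 0.287, and replicates differed beyond sampling noise (lowest chi-square per degree of freedom 18.3). Plots were made in matplotlib 3.10.9 (Python 3.11.15, with pandas 2.3.3 for tables).

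The 10 genes are named whatever their values, with TGFB3, TGFBR1 and TGFBR3, at most the 4 called genes with the smallest p per list and comparison, and the 5 genes most like THSD4. The members and lists were chosen with earlier results of these data known. The depth of each library limits precision for low genes such as TGFB3.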

Additional observations from a re-analysis of the deposited data

Results flagged for a closer look

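Of 52 groups of 4 libraries checked, for the 10 genes with TGFB3, TGFBR1 and TGFBR3, 2 had a library whose gap to the nearest of the others exceeded Dixon's critical ratio of 0.829, where chance gives about 2.6. TGFB3 was at 0 CPM in collagen replicate 1, with the nearest collagen library at 2.08 CPM (ratio 0.909). TGFBR1 was at 25.4 CPM in RUNXi replicate 1, with the nearest RUNXi library at 32.9 CPM (ratio 0.915).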

How the results depend on the processing

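With DDR1i against collagen, 1 of the 9 members other than THSD4 was called (LTBP2). The number was 4 with DESeq2 (LTBP2, FBN2, LTBP1 and TGFBR2, of 8 with an adjusted p). It was 3 without the filter on low counts (LTBP2, FBN2 and LTBP1). The number was 0 with the length trend removed, with collagen replicate 3 included, with DESeq2 and replicate 3 included, and with the length trend removed and replicate 3 included. It ran from 0 to 3 when 1 library was left out. Over all genes the calls rose from 334 to 824 of 13548 with DESeq2 and 755 of 17911 without the filter. They ran from 60 to 662 without 1 library. With RUNXi against collagen none was called, 2 without the filter (FBN2 and LTBP2), and 0 to 1 without 1 library (FBN2, without collagen replicate 2). Over all genes these calls numbered 549, 1046 of 17911 without the filter, and 123 to 715 without 1 library. Between collagen and control none was called, and 1 (FBN2) with DESeq2, without the filter and with all 4 groups in the fit. Over all genes these fits called 415 of 13092, 284 of 18059 and 313 of 13731. The comparisons between the inhibitors and with the control stayed at 0 in all 20 alternatives of the former and all 19 for each inhibitor of the latter. The cause of these differences was not tested. The fits of DESeq2 or the length trend with replicate 3 included, and those without control replicates 2 and 3, the shallowest of that group, were chosen after seeing the data.

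Removing the length trend moved the median log2 difference of all genes with DDR1i against the control from 0.01 to -0.10. Over all genes the calls with DDR1i and RUNXi against collagen numbered 334 and 549. They were 9 and 60 with collagen replicate 3 included, 162 and 202 with the length trend removed, and 537 and 759 with the replicate number as a block. With that block 3 members were called with DDR1i (LTBP2, TGFBR2 and FBN2). The main fits did not pair samples by number. Deviations of the 10 pairs with the same number correlated at 0.00145 to 0.200, with 4 of them over 0.1. Of 11 libraries, 10 correlated best with their own number. Whether libraries with the same number shared a batch was not tested.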
